A study of Mus musculus with 6 samples.

Results

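Integrins are the receptors by which cells hold on to matrix, and laminins, nidogens, perlecan and agrin are parts of the basement membrane, the thin sheet of matrix that surrounds vessels, muscle, nerve, fat cells and epithelia. They were compared in bone marrow stromal cells of mice aged 3 months and 18 months. The genes were chosen by symbol in the platform annotation: the integrin alpha and beta subunits, the laminin chains, and Nid1, Nid2, Hspg2 and Agrn. Each needed a probe set, the array's unit of measurement, that was annotated to a single gene. This gave 40 of the 30702 genes with such a probe set: 17 integrin alpha subunits, 9 integrin beta subunits, 10 laminin chains and 4 other basement membrane genes. Each of the 40 had a single probe set. Itga1 shares its probe set with Pelo, a gene that lies within it, and is not among the 40.

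An integrin is a pair of an alpha and a beta subunit, and the alpha subunit largely sets what the pair binds: collagens, proteins with an RGD motif such as fibronectin, laminins, or other cells in the case of the leukocyte subunits. A laminin is a trimer of an alpha, a beta and a gamma chain, secreted as a unit, and nidogens link the laminin network to that of collagen IV. Marrow stromal cells make matrix and hold on to it through integrins, and the integrin beta subunit CD29, the product of Itgb1, is a usual surface marker of these cells.

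The study had 6 Affymetrix arrays, 3 from mice of 3 months (young) and 3 from mice of 18 months (aged). In both ages femurs were crushed and digested with collagenase, and the freed cells were sorted by flow cytometry as positive for Sca-1 and CD29 and negative for CD45 and CD11b and expanded in culture through a first passage before total RNA was taken. Strain, genotype and sex of the mice are not given in the sources used here, and nothing says whether each array came from its own animal or from pooled animals. The p-values therefore measure the spread between these arrays, which may in part be technical. CD29 (Itgb1) and CD11b (Itgam) were themselves used for the sort, so their level describes the gate as well as the cells.

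The values are log2 expression values as deposited, and a difference of 1 is a doubling of the measured signal. Array medians lay between 5.39 and 5.44, and Pearson's r across the 20187 genes tested was 0.995 to 0.999 within an age and 0.976 to 0.978 between ages. The probe sets of the negative controls had 95% of their means below 7.61, so a value under 7.61 lies within the range of the negative controls, and a fold is given for a gene with both means above it. The brightest class of antigenomic probes, which match no mouse sequence, read 8.87 in young and 9.11 in aged arrays. The largest difference between the ages in any antigenomic class was 0.29, upward, and is used below as the size of a background shift in either direction. The median difference was -0.26 over the negative controls, -0.15 over the positive controls and 0.01 over all genes tested. Both means were within the negative control range in 23 of the 40 genes and above it in 15. Both were above the brightest antigenomic class in 10: Hspg2, Itga3, Itga5, Itgav, Itgb1, Itgb5, Lamb1, Lamb2, Lamc1 and Nid1. Of the 9 stromal markers with a probe set, Col1a1, Col1a2, Cxcl12, Prrx1 and Twist1 were above the negative control range in both ages, Col1a1 at 12.43 and 13.22 in young and aged cells. Eng, Lepr, Nt5e and Thy1 lay within it in both ages, Lepr at 4.18 and 4.31 and Thy1 at 6.31 and 6.28. Ptprc, the gene of CD45, read 3.65 and 3.62. In such bulk RNA, fewer cells of a kind and less RNA per cell cannot be told apart.

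Promoter sequence is shown for 4 genes on which the results below turn: Itga10 and Itga11, the collagen-binding subunits that rose together, Nid1, a nidogen that rose, and Lamb1, the laminin chain with the largest decrease. Each line gives the 250 bases before the RefSeq start of the gene, 5′ to 3′ on the gene's strand, from RefSeq on assembly GRCm38.p6. Capitals mark the motifs searched on both strands, GGAATG (the core site of TEAD factors), TGANTCA (AP-1) and GGGCGG (the GC box).
Itga10, chr3:96645334-96645583, plus strand: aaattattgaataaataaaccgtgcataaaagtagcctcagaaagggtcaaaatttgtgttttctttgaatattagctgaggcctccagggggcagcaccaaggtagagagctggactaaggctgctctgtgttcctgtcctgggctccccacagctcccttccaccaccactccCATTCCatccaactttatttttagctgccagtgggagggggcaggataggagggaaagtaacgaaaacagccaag
Itga11, chr9:62677605-62677854, plus strand: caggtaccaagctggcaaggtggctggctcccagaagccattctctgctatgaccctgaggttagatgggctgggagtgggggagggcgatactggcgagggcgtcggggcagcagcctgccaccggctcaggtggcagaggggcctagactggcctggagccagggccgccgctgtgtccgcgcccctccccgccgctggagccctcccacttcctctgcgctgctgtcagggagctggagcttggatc
Nid1, chr13:13437352-13437601, plus strand: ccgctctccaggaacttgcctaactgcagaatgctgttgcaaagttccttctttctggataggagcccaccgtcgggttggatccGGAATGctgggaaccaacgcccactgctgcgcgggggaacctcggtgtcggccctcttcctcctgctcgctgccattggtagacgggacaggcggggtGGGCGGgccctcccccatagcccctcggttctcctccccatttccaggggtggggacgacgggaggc
Lamb1, chr12:31265043-31265292, plus strand: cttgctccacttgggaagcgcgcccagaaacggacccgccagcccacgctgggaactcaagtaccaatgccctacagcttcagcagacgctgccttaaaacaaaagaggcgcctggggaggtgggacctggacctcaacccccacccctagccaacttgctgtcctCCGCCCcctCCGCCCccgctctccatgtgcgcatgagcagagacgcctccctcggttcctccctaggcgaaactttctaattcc

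The Itga10 window holds 1 TEAD core, read on the reverse strand, and the Nid1 window holds 1 TEAD core and 1 GC box. The Lamb1 window holds 2 GC boxes on the reverse strand, and in the Itga11 window these letters were not found. No matches overlap within these windows. G and C made up 48.0% of the Itga10 window and 68.4%, 64.4% and 62.0% of those of Itga11, Nid1 and Lamb1. Of the 40 genes 26 matched the promoter table. Among these 26, which had 30 windows, 11 held a GC box, 4 a TEAD core and 1 an AP-1 site. A gene was counted if any of its windows held the motif, whereas the shares that follow are per window. Of all 32851 promoter windows of this length in the table, 32.7% held a GC box, 12.6% a TEAD core and 6.75% an AP-1 site. These matches are descriptions of letters and not of binding.

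The comparison of aged with young arrays asked which of these genes differ with donor age. With age, the collagen-binding subunits Itga10 and Itga11, the fibronectin receptor subunit Itga5 and both nidogens rose. The widely used laminin chains Lamb1 and Lama5 fell, as did the laminin-binding subunit Itga6. Of the 40 genes 34 were bright enough to be tested, with a mean of at least 5.40. Among the 34, 13 were higher in aged cells, 8 were lower and 13 did not pass (limma, Benjamini-Hochberg adjusted p under 0.05 over all 20187 genes tested). Calls were common on these arrays as a whole: of all genes tested 40.6% were called, 18.4% as higher and 22.1% as lower. Of the called members, 14 had both means above the negative control range, 8 of them higher and 6 lower. In 21 of the 34 every aged array lay on the same side of every young array, as it did in 51.3% of all genes tested. Of the 34, 2 passed the minimum only through their aged arrays, Itga8 and Lama2, and so had to differ to be tested at all. The median difference over the 40 genes was 0.05, beside 0.01 over all 30702 genes.

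The called genes differed widely in size. Among the 21 called, 14 differed by more than the background shift of 0.29, 10 higher and 4 lower, a size and call that 20.3% of all genes tested reached. The other 7, Hspg2, Itga3, Itga7, Itgb1, Itgb5, Itgb7 and Lamb2, differed by less. When the difference was tested against 0.3 rather than 0, 13 of the 34 passed, beside 9.83% of all genes tested. These were Agrn, Itga10, Itga11, Itga5, Itga8, Lama2, Lama3, Lama4, Nid1 and Nid2, which were higher, and Itga6, Lama5 and Lamb1, which were lower. Among them are Itga8 and Lama2, which had to differ to be tested at all. At least a 2-fold difference in measured value together with a call was seen for 3 of the 34, Itga11, Itga10 and Nid2, beside 2.24% of all genes tested. Without aged array 1 the count of lower genes was 5 in place of 8, as Hspg2, Itgb1 and Lamb2 no longer passed.

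**Figure D1:**
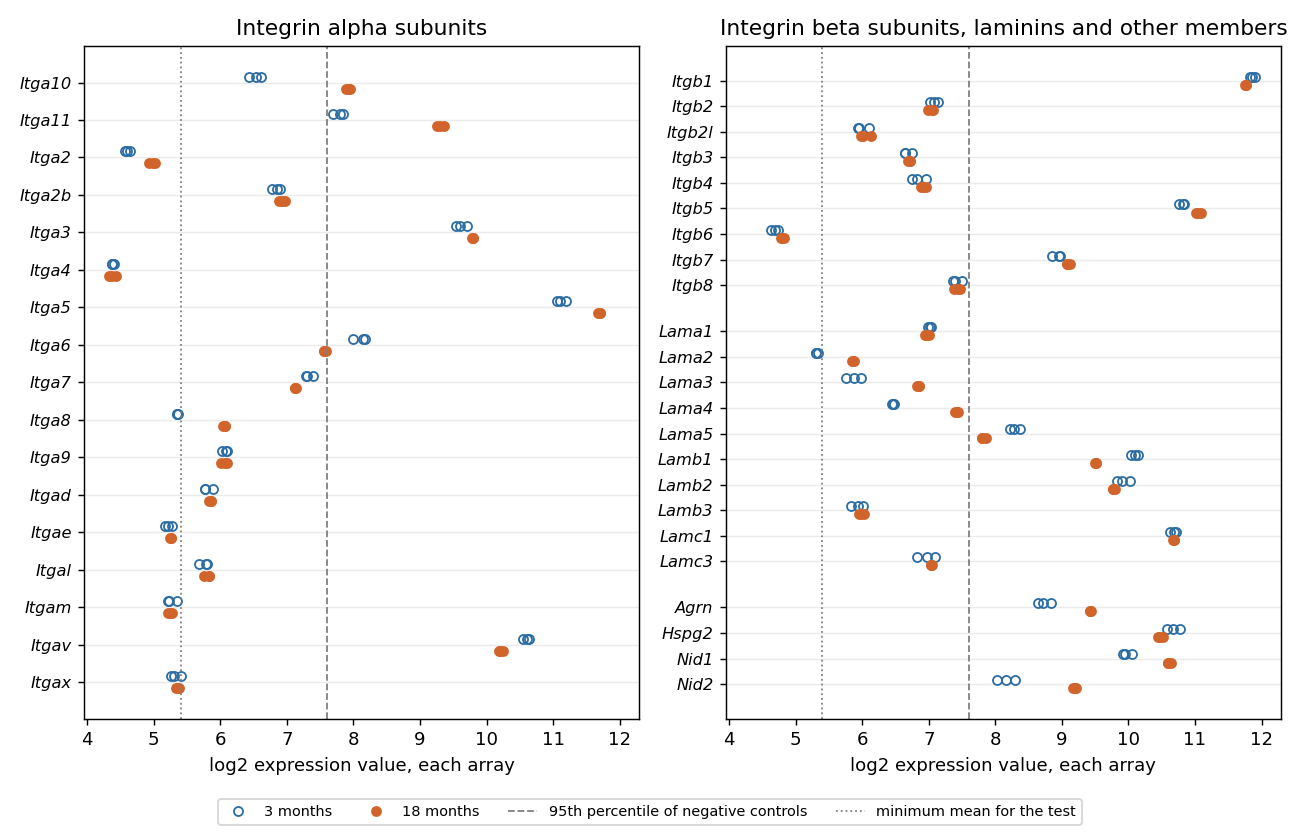
Log2 expression value of each of the 40 genes on each array, with open circles for the 3 arrays of 3 months and filled circles for the 3 arrays of 18 months. The dashed line is the 95th percentile of the negative controls (7.61) and the dotted line the minimum mean for the test (5.40). Itga11 and Itga10 show the widest gaps between the ages, and the leukocyte subunits lie to the left of the dashed line in both ages apart from Itgb7.

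Collagen-binding subunits had the largest rises. Itga11, whose product binds fibrillar collagen and has also been described as a receptor for osteolectin on marrow stromal cells, read 7.84, 7.79 and 7.69 on the young arrays and 9.25, 9.29 and 9.36 on the aged arrays. Every aged array was above every young array, with a gap of 1.41 between the nearest values. The difference was 1.53 ± 0.05 (SE), or 2.88-fold (limma, adjusted p = 4.91e-08). The young values of Itga11 were below the brightest antigenomic class. Itga10, known from cartilage and skeletal progenitors, read 6.43, 6.54 and 6.61 in young and 7.90, 7.93 and 7.95 in aged arrays. The young values lay within the negative control range and the aged values just above it, and the groups were 1.29 apart at their nearest. The difference was 1.40 ± 0.06 (SE; limma, adjusted p = 2.15e-07). Itga2, the subunit of the collagen receptor of platelets and epithelia, was too dim to be tested, at 4.60 ± 0.03 in young and 4.98 ± 0.05 in aged cells (SD, n = 3 each). Its arrays did not overlap between the ages, and without the minimum it was called (limma, adjusted p = 0.00165).

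Subunits that bind fibronectin and other RGD proteins moved in both directions. Itga5, the main fibronectin receptor subunit with Itgb1, was bright and read 11.19, 11.10 and 11.05 in young and 11.70, 11.68 and 11.70 in aged arrays. The 3 aged values lay close together, above all young values, and the difference was 0.58 ± 0.04 (SE), or 1.49-fold (limma, adjusted p = 4.28e-06). Itgav, which pairs with several beta subunits to bind vitronectin and to activate latent TGF-beta, read 10.63, 10.60 and 10.55 in young and 10.18, 10.20 and 10.24 in aged arrays. It was lower on every aged array, by 0.39 ± 0.03 (SE), with a young level 1.31 times the aged one (limma, adjusted p = 1.92e-05), and it did not pass when tested against a difference of 0.3. Itga8, a receptor for nephronectin found on mesenchymal and smooth muscle cells, was at 5.35 ± 0.01 in young and rose to 6.06 ± 0.02 in aged cells (SD of 3 arrays), under the 95th percentile of the negative controls in both ages. Itga2b, the platelet subunit, was at 6.84 ± 0.06 and 6.93 ± 0.04 (SD, n = 3 each) and did not pass (limma, adjusted p = 0.224).

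The laminin-binding alpha subunits did not move together. Itga6, which pairs with Itgb1 or Itgb4, read 8.18, 8.15 and 7.99 in young and 7.56, 7.58 and 7.55 in aged arrays. The aged arrays were all lower and had reached the edge of the negative control range, with a difference of -0.54 ± 0.05 (SE; limma, adjusted p = 5.30e-05). Itga3, which binds laminins that hold the alpha 3 or alpha 5 chain, read 9.71, 9.60 and 9.54 in young and 9.78, 9.80 and 9.80 in aged arrays. Its rise of 0.18 ± 0.04 (SE) left the groups 0.07 apart and was smaller than the background shift (limma, adjusted p = 0.0112). Itga7, the laminin receptor of muscle, fell by 0.20 from 7.33 ± 0.05 to 7.13 ± 0.01 (SD, n = 3 each), within the negative control range.

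Among beta subunits the differences were small. Itgb1, the partner of most alpha subunits and part of the sort gate, read 11.83, 11.85 and 11.91 in young and 11.77, 11.75 and 11.76 in aged arrays. The ages were 0.05 apart at their nearest, and the difference was -0.10 ± 0.03 (SE; limma, adjusted p = 0.0250). It did not pass under quantile normalization, where it was -0.03, or under median centring, where it was -0.08. The call was lost in 9 of the 16 alternative settings described below, among them leaving out young array 2 or any aged array. Itgb5, which pairs with Itgav to bind vitronectin, read 10.84, 10.82 and 10.76 in young and 11.05, 11.02 and 11.10 in aged arrays. It was higher on every aged array by 0.25 ± 0.03 (SE), or 1.19-fold (limma, adjusted p = 3.67e-04), within the background shift.

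The other beta subunits that pair with Itgav were dim. Itgb3 was at 6.68 ± 0.06 and 6.71 ± 0.01 and Itgb8 at 7.42 ± 0.07 and 7.43 ± 0.05 in young and aged cells (SD, n = 3 each), and neither passed. Their 95% intervals for the difference ran from -0.09 to 0.14 and from -0.11 to 0.12. Itgb6, an epithelial subunit, was too dim to be tested, at 4.68 ± 0.05 and 4.80 ± 0.02 (SD, n = 3 each). Itgb4, the laminin receptor subunit of epithelial hemidesmosomes, was at 6.84 ± 0.10 and 6.92 ± 0.03 (SD, n = 3 each) and did not pass (limma, adjusted p = 0.388).

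Subunits of leukocytes were dim in both ages apart from Itgb7. Itgb2, the shared beta subunit of the leukocyte integrins, was at 7.08 ± 0.06 and 7.03 ± 0.04 in young and aged cells (SD, n = 3 each), within the negative control range. Its partners Itgal and Itgad and the Itgb2-related gene Itgb2l did not pass, with differences of 0.04, 0.04 and 0.05. Itgam, Itgax, Itgae and Itga4 were too dim to be tested, with differences from -0.02 to 0.04. Itgam, Itgax and Itgad are neighbours, each next to the other among protein-coding genes in that order. Itga9, which like Itga4 binds VCAM-1, was at 6.07 ± 0.04 and 6.06 ± 0.04 (SD, n = 3 each). Itgb7, a subunit of gut-homing lymphocytes, read 8.97, 8.95 and 8.86 in young and 9.07, 9.12 and 9.07 in aged arrays, a rise of 0.16 ± 0.04 (SE; limma, adjusted p = 0.0114) at the level of the brightest antigenomic class. It did not pass without aged array 2.

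Markers of leukocytes were read beside these subunits. All 9 macrophage and monocyte markers lay within the negative control range in both ages, Ptprc lowest. Of the 5 tested, 1 was called, Cd14, as higher, and the summed linear signal of the 9 was 503 to 522 on young and 552 to 561 on aged arrays. Mpeg1, too dim to be tested, read 4.69 in young and 5.68 in aged cells, with no overlap between the ages. Of the neutrophil markers 2 of 5 tested were higher, with a summed signal of 322 to 378 and 416 to 429, and of the lymphocyte markers 0 of the 4 tested were called by limma and 0 had an unadjusted p under 0.05, with a summed signal of 281 to 313 and 284 to 300. Beside the platelet subunit Itga2b, of 4 megakaryocyte markers tested Ppbp was higher, Vwf was lower, and Pf4 and Gp9 did not pass. The summed signal was 413 to 446 on young and 833 to 865 on aged arrays. Most of the rise in this sum came from Ppbp alone, at 6.53 in young and 8.95 in aged cells. Gp6 was too dim to be tested, at 4.95 and 5.02. Their part in the values of the leukocyte and platelet subunits was not tested.

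Laminin chains moved in opposite directions with age. Lamb1, the beta chain of most laminins of soft tissue, was bright and read 10.14, 10.10 and 10.04 in young and 9.51, 9.50 and 9.51 in aged arrays. All aged arrays were lower, with 0.52 between the nearest values. The difference was -0.58 ± 0.03 (SE; limma, adjusted p = 2.13e-06), and the young level was 1.50 times the aged one. Its usual partner Lamc1, the gamma chain of most laminins, read 10.72, 10.69 and 10.63 in young and 10.68, 10.67 and 10.69 in aged arrays. There the aged values fell among the young ones, and the 95% interval of the difference was -0.07 to 0.07 (limma, adjusted p = 0.981). Lamb2, the alternative beta chain of kidney and nerve-muscle basement membranes, was at 9.92 ± 0.10 and 9.78 ± 0.01 (SD, n = 3 each). Its difference of -0.14 (limma, adjusted p = 0.0410) did not pass when young array 1 or 2 or any aged array was left out, or under median centring, where it was -0.12.

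The alpha chains set the receptor binding of a laminin. Lama5, the broadest alpha chain of adult tissue, read 8.38, 8.28 and 8.22 in young and 7.81, 7.79 and 7.87 in aged arrays. It was lower on all aged arrays by 0.47 (SE 0.05), with a young level 1.39 times the aged one (limma, adjusted p = 7.55e-05). In both ages Lama5 was below the brightest antigenomic class. Lama4, the alpha chain of vessel walls and other mesenchymal tissue, read 6.46, 6.48 and 6.45 in young and 7.40, 7.43 and 7.43 in aged arrays, a difference of 0.96 ± 0.04 (SE; limma, adjusted p = 4.62e-07). These groups were 0.93 apart at their nearest, and both lay within the negative control range. Lama3, best known from epithelia, read 5.75, 5.88 and 5.98 in young and 6.86, 6.82 and 6.85 in aged arrays, a difference of 0.98. Lama2, the chain of muscle and peripheral nerve, was at 5.31 ± 0.01 and 5.86 ± 0.01 (SD of 3 arrays) and rose by 0.55. Each of the 3 chains that rose was thus within the negative control range in both ages. Lama1, Lamb3 and Lamc3 did not pass, with adjusted p = 0.451, 0.519 and 0.450 (limma) and differences of -0.05, 0.06 and 0.07.

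**Figure D2:**
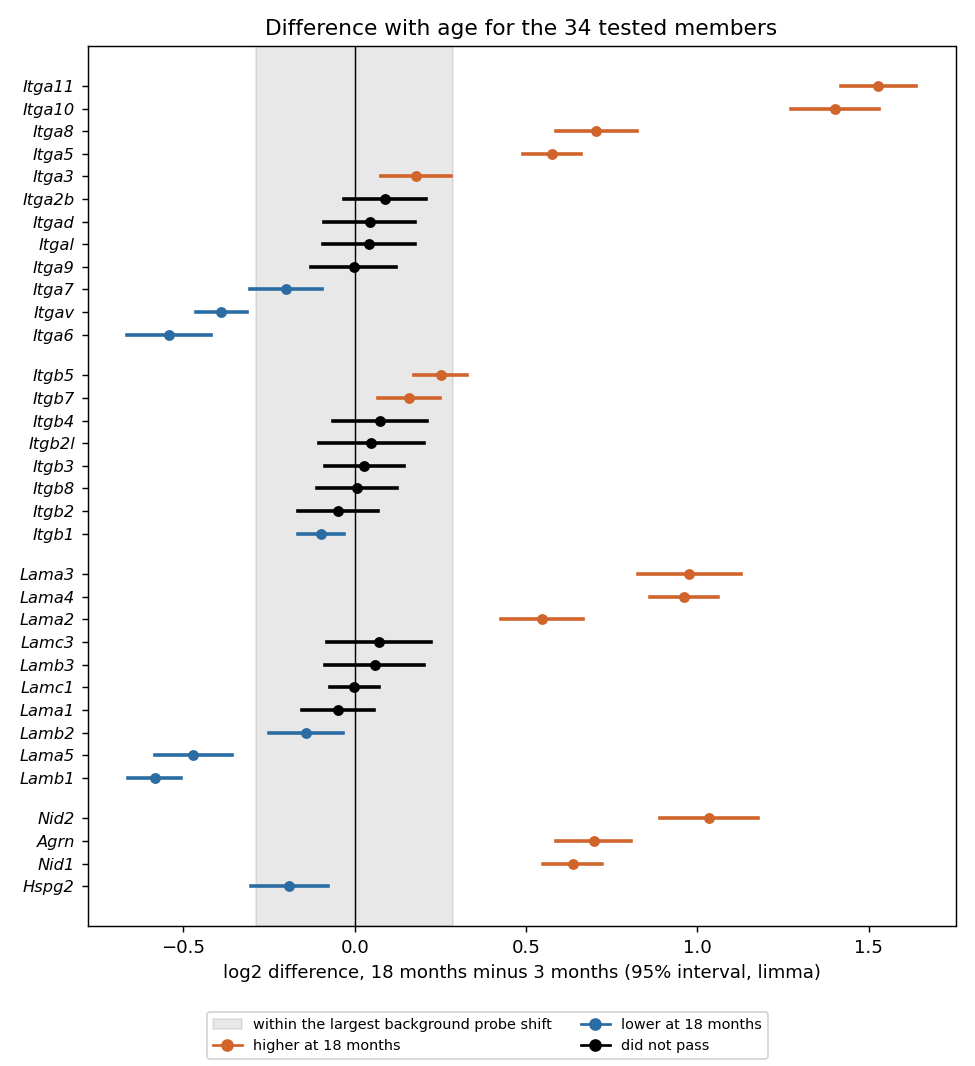
Difference in log2 expression value, 18 months minus 3 months, with its 95% interval from limma, for the 34 tested genes, grouped as integrin alpha subunits, integrin beta subunits, laminin chains and other basement membrane genes. The grey band spans the largest shift of the antigenomic probes, 0.29 on either side of 0. All beta subunits have their point inside the band, whereas Itga11, Itga10, Nid2, Lama3 and Lama4 lie furthest to the right and Lamb1 and Itga6 furthest to the left.

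Both nidogens rose. Nid1 read 10.05, 9.96 and 9.92 in young and 10.60, 10.59 and 10.64 in aged arrays, a difference of 0.64 ± 0.04 (SE), or 1.55-fold (limma, adjusted p = 2.59e-06). Nid2 read 8.29, 8.16 and 8.02 in young and 9.17, 9.20 and 9.21 in aged arrays, a difference of 1.03 ± 0.06 (SE), or 2.05-fold (limma, adjusted p = 2.80e-06). For each nidogen all aged arrays were above all young arrays, by 0.55 for Nid1 and 0.88 for Nid2 at the nearest. The young values of Nid2 were below the brightest antigenomic class.

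The heparan sulfate proteoglycans of the basement membrane went opposite ways. Agrn, which encodes agrin, the organiser of the nerve-muscle synapse, read 8.83, 8.71 and 8.64 in young and 9.42, 9.42 and 9.44 in aged arrays. The groups were 0.58 apart and the difference was 0.70 ± 0.05 (SE), or 1.62-fold (limma, adjusted p = 6.19e-06). The young values of Agrn were below the brightest antigenomic class. Hspg2, which encodes perlecan, read 10.77, 10.66 and 10.57 in young and 10.45, 10.47 and 10.52 in aged arrays. It was lower by 0.19 (SE 0.05; limma, adjusted p = 0.0128), a difference within the background shift, with 0.05 between the nearest arrays.

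Vessel-wall and epithelial markers were read beside the laminin and nidogen values. Of 7 endothelial markers tested, Flt1 and Kdr were higher and Tek was lower, while Cdh5 read 5.45 and 5.44 and Pecam1 5.20 and 5.24 in young and aged cells, within the negative control range. The summed linear signal of the 9 endothelial markers was 675 to 706 on young and 818 to 834 on aged arrays. Among 9 pericyte and smooth muscle markers tested 5 were higher and 2 lower. Myl9 rose by 1.23, Rgs5 read 4.96 and 4.95, and the summed signal of the 10 was 11900 to 12531 on young and 14346 to 14676 on aged arrays. Of 6 epithelial markers tested 0 were called by limma and 0 had an unadjusted p under 0.05, and the summed signal was 454 to 554 and 518 to 528. Of 5 Schwann and neural markers tested 1 was higher, Ncam1, which stromal cells may also express, and the summed signal of the 6 was 1277 to 1301 and 1889 to 1976. Most of the rise in that sum came from Ncam1, at 9.87 in young and 10.61 in aged cells. Of 7 skeletal muscle markers tested 1 was higher, Des, and the summed signal of the 8 was 644 to 733 and 708 to 743. The part of these markers in the laminin and nidogen differences was not tested.

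Among other basement membrane components, collagen IV chains and fibulins rose. Of 27 listed, 26 had a probe set and 23 were tested, of which 12 were higher, 0 were lower and 11 did not pass (limma; at an unadjusted p under 0.05, 16 and 0), with a median difference of 0.18 beside 0.01 over all genes tested. Of all genes tested, 18.4% were called higher and 22.1% lower. Both chains of the main collagen IV network rose: Col4a1 went from 9.33 ± 0.06 to 10.14 ± 0.02 and Col4a2 from 9.57 ± 0.07 to 10.29 ± 0.01 (SD, n = 3 each), 1.75-fold and 1.65-fold. The fibulins Fbln2 and Fbln1, which bind nidogen and other basement membrane proteins, rose 1.79-fold and 1.62-fold. Smoc2, a relative of SPARC, went from 6.55 ± 0.12 to 7.56 ± 0.08 and Npnt, which encodes nephronectin, from 6.81 ± 0.05 to 7.48 ± 0.05 (SD of 3 arrays), all of them within the negative control range. Counting genes with at least one age above the negative controls, 7 were higher in place of 12.

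Integrin ligands outside the basement membrane were read next. Of 25 tested, 15 were higher, 3 were lower and 7 did not pass, with a median difference of 0.22. The shares over all genes tested were 18.4% higher and 22.1% lower. The matricellular proteins Ccn2, Ccn3, Postn, Thbs1 and Thbs2 rose 3.88-fold, 3.77-fold, 3.09-fold, 2.64-fold and 2.63-fold, and Col3a1, a fibrillar collagen, rose 3.61-fold. The 3 lower genes, named after their values were seen, were Fn1, which encodes fibronectin, Ccn4 and Tnc, with differences of -0.23, -0.74 and -0.11. Those of Fn1 and Tnc were within the background shift. The Fn1 value was 13.58 ± 0.03 in young and 13.35 ± 0.01 in aged cells (SD, n = 3 each), where its receptor subunit Itga5 was higher in aged cells and Itgav lower.

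Inside the cell, integrins work through adaptor proteins and kinases. Of 33 such genes tested, 14 were higher, 7 were lower and 12 did not pass, with a median difference of 0.03. Over all genes tested, 18.4% were higher and 22.1% lower. Tns1, a tensin that ties integrins to actin, went from 7.14 ± 0.03 to 10.36 ± 0.03 (SD of 3 arrays) and so rose by 3.22 from a young value within the negative control range (limma, adjusted p = 3.11e-10), and Tns2 rose 1.66-fold. Tgfb1i1, a relative of paxillin, rose 2.35-fold and Ilk, the integrin-linked kinase, 1.50-fold. Lims2, a partner of Ilk, and Ptk2b, a relative of focal adhesion kinase, likewise rose by 1.12 and 0.93 from young values within the negative control range. Against a difference of 0.3, 6 were higher and 1 was lower, where 9.83% of all genes tested passed in either direction.

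A last list held non-integrin laminin receptors, the dystroglycan complex and its glycosylation enzymes, and tetraspanins that accompany integrins in the membrane. Of 18 tested, 12 were higher, 1 was lower and 5 did not pass, with a median difference of 0.29, and 4 were higher against a difference of 0.3. Over all genes tested, 18.4% were higher, 22.1% were lower and 9.83% passed against 0.3 in either direction. The tetraspanins Cd82 and Cd151 rose 1.83-fold and 1.28-fold, the syndecans Sdc4 and Sdc1 1.83-fold and 1.43-fold, and Sspn and Sgce, of the dystroglycan complex, 1.49-fold and 1.30-fold. The lower gene, named after its value was seen, was Utrn, which encodes utrophin, with a difference of -0.29.

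**Figure D3:**
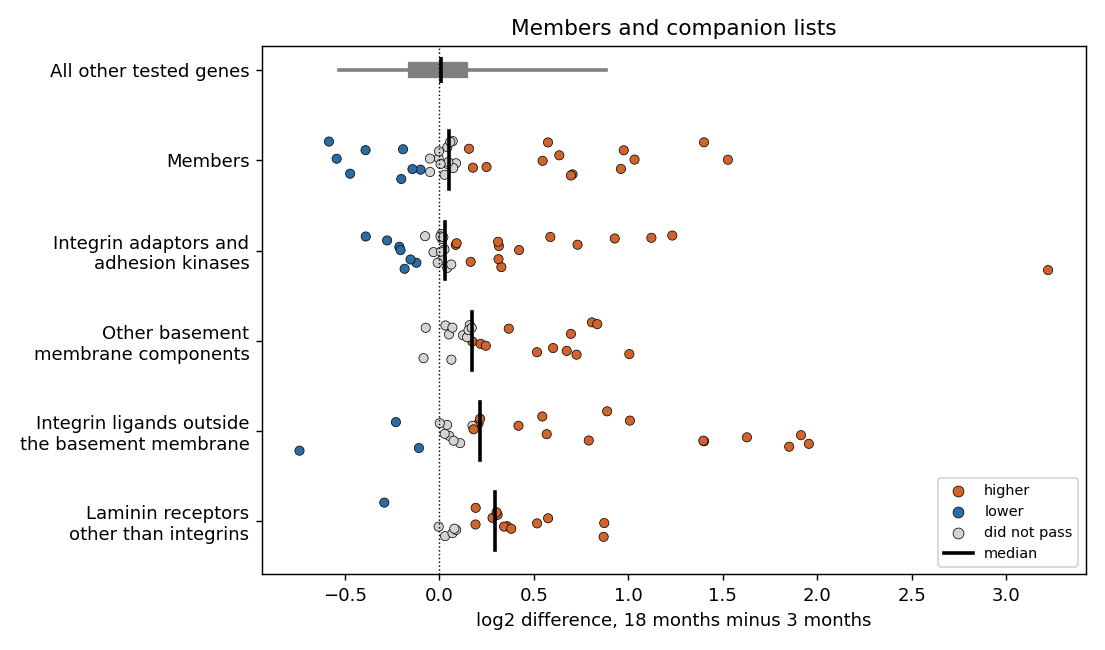
Difference in log2 expression value, 18 months minus 3 months, for the 34 tested integrin and basement membrane genes (Members) and for 4 companion lists, a point per gene, orange for higher, blue for lower and grey for not passed, with the median as a vertical bar. For all other tested genes the thick bar runs between the quartiles, the thin line the middle 95% and the tick the median. The medians of the lists run from 0.03 for adaptors to 0.29 for laminin receptors, and Tns1 stands alone at 3.22.

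Across 16 alternative settings all 21 called genes kept their direction wherever they were tested, but most settings could not have reversed it. The other filters, the mean of a gene's probe sets, the eBayes options, the test against 0.3 and the replicate block leave the difference unchanged. As no called gene overlapped between the ages, leaving out an array could not turn its sign either. Only quantile normalization and median centring could have done so. Agrn, Itga10, Itga11, Itga5, Itga6, Itga8, Lama2, Lama3, Lama4, Lama5, Lamb1, Nid1 and Nid2, 13 in all, also passed under each setting that gave them a value. Itga8, Lama2 and Lama3 had a value in 14 of the settings and Lama4 in 15, as stricter minimums for brightness left them out. Itga8 and Lama2 also had to differ to be tested in the reported setting. Itga3, Itga7, Itgav and Itgb5 were lost solely when tested against a difference of 0.3, and Hspg2, Itgb1, Itgb7 and Lamb2 were lost under further settings.

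**Figure D4:**
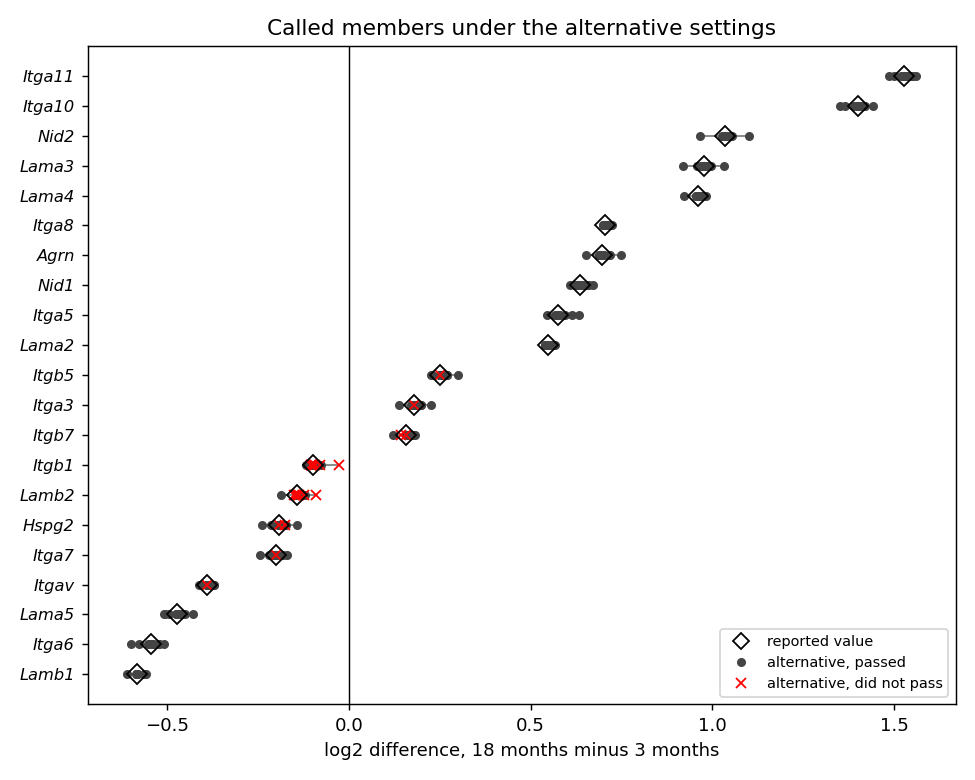
Difference in log2 expression value for the 21 called genes under the reported setting (diamond) and under the 16 alternatives, with filled points for alternatives in which the gene passed and crosses for those in which it did not. No gene crosses 0, which only quantile normalization or median centring could have brought about. The crosses lie on Itgb5, Itga3, Itgb7, Itgb1, Lamb2, Hspg2, Itga7 and Itgav.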

How the data were processed

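Each probe set has, per array, a log2 expression value that the authors deposited. MAS5, without a version, is the tool the submitters' processing notes give, but whether the values are a MAS5 or an RMA-type summary was not settled from the files, and folds are those of the values as deposited. Background, scaling and genome build are not given in the sources used here, and log base 2 was read from the range of the values. Probe sets were named through the platform annotation, with symbols updated through the RefSeq table of assembly GRCm38.p6, which all 40 members matched. Of 65956 transcript clusters 31258 had 1 gene, 1492 had several, and 33206 could not be named. The probe set with the highest mean was kept per gene, and genes whose mean lay under 5.40, the median of the transcript clusters, were left out. The 6 arrays were fitted with limma 3.58.1 in R 4.3.3 (lmFit, eBayes with an intensity trend), with Benjamini-Hochberg adjustment over 20187 genes. SD is over 3 arrays and SE is the moderated SE. With 3 arrays against 3, the smallest two-sided p of an exact permutation test is 0.1. The fit was tested on simulated data.

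The members and lists were chosen with earlier results of these data known. Every member could be named, and from each companion list the up to 6 called genes with the largest difference. Alternatives were quantile normalization, median centring, 3 other filters, the mean of a gene's probe sets, eBayes without trend or robust, a test against 0.3, the replicate number as a block, and each array left out in turn. The number of arrays limits the precision. No source names a culture or hybridisation batch, and a batch that went with age cannot be told apart from it. Figures were drawn with matplotlib 3.10.9.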

Additional observations from a re-analysis of the deposited data

How the results depend on the processing

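Tested against a difference of 0.3, 3 members were lower in place of 8, adaptors gave 6 higher and 1 lower in place of 14 and 7, ligands 1 lower in place of 3, and laminin receptors 4 higher and 0 lower in place of 12 and 1; over all genes 1169 were higher and 816 lower in place of 3724 and 4471. These counts follow from the larger difference required. With at least one age above the negative controls, fewer genes were tested and 7 other basement membrane components were higher in place of 12. Leaving out each array in turn gave 5 to 8 lower members, the lowest without aged replicate 1, and 0 to 1 lower basement membrane components, the 1 without young replicate 3. The differences that changed sign belonged to genes that had not passed: under quantile normalization Itgb3 was -0.013, Itgb8 -0.043 and Lamc1 0.022, and under median centring Itga9 was 0.017 and Lamc1 0.019. With each array left out Itga9 ran from -0.027 to 0.020, Itgb8 from -0.019 to 0.047 and Lamc1 from -0.027 to 0.020. For Itgb1 and Lamb2 the cause of the lost calls was not tested.

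With the replicate number as a block, 13 members were higher and 6 lower, Itgb1 and Lamb2 being lost, and 3524 genes were higher and 4204 lower over all genes. The numbers did not pair the arrays: deviations of same-numbered arrays correlated at -0.05, 0.07 and 0.02, and 2 of 6 arrays correlated best with their own number.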

Other observations

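Itga1, the remaining collagen-binding alpha subunit, shares its probe set with Pelo, so the value cannot be given to either. That probe set read 6.85, 6.75 and 6.61 on young and 7.14, 7.13 and 7.13 on aged arrays, all within the negative control range, with no overlap between the ages and a difference of 0.40.

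Differences within an array, which an equal shift of all its values cannot move, were taken for 5 pairs chosen after their values were seen, and none was tested. A shift that depends on brightness can move them where the 2 genes differ in brightness. The log2 value of Itga5 minus that of Itgav went from 0.52 ± 0.04 in young to 1.49 ± 0.03 in aged arrays (SD, n = 3 each), and Itga3 minus Itga6 went from 1.51 ± 0.05 to 2.23 ± 0.02. The aged Itga6 values were no brighter than the upper negative controls. Lamb1 minus Lamc1 moved by -0.58 and Itgb5 minus Itgb1 by 0.35. Lama4 minus Lama5 is not given, as Lama4 lay within the negative control range in both ages. The difference between probes on 1 array says nothing about which gene has more transcript.

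The young arrays varied more than the aged ones, with the larger SD in 34 of the 40 members. Among them young array 1 was the highest and young array 3 the lowest in 19 members, and the reverse held in 14, so the young deviations were shared between genes. The 14 all had young means within the negative control range, apart from Itgb1. The 19 all had young means above it, apart from Itga7, Itgb3, Itgb8 and Lama1.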
